A study of Mus musculus with 20 samples.

Results

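Glutamate receptors and the proteins of the postsynaptic density were described in mouse neocortex across age and vitamin E supplementation. The set held 37 genes, listed by name from their known function. It was chosen with earlier results of these data known. It covered 4 AMPA, 5 NMDA and 5 kainate receptor subunits, 6 metabotropic glutamate receptors and 9 scaffold proteins. The remaining 8 were 4 calcium signalling proteins and spine regulators and 4 adhesion proteins or AMPA receptor partners. The array's annotation named 35 of them with at least 1 probe set of 1 gene symbol, and Grin1 and Shank2 were not analysed here. The brightest probe set stood for each gene. Of the 35, 34 lay among the 13351 genes bright enough to be tested, and Grin2a was too dim.

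The samples were neocortex of 20 male B6C3F1 mice, a first-generation hybrid of the C57BL/6 and C3H strains, housed singly. On control diet there were young mice of 5 months and old mice of 30 months, called young control and old control. The other groups were also 30 months old and were supplemented from 15 months, one with α-tocopherol at 1000 mg/kg and one with 500 mg/kg α-tocopherol plus 500 mg/kg γ-tocopherol, called the mixture here. These doses are those of the sample labels; the series' design text gives 500 mg/kg for each tocopherol and no separate amount for α-tocopherol alone. α-Tocopherol and γ-tocopherol are forms of vitamin E, and γ-tocopherol has 1 fewer methyl group on its ring. Each group had 5 animals with 1 array each, so the spread between replicates is a spread between animals. The study asked how age changes transcription in the brain and what vitamin E begun in middle age does to it.

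Glutamate is the main excitatory transmitter of the neocortex. AMPA and kainate receptors open ion channels when glutamate binds, NMDA receptors in addition admit calcium, and metabotropic receptors act through G proteins. Scaffold proteins of the postsynaptic density hold these receptors under the release site, calcium-dependent kinases adjust their number, and adhesion proteins join the spine to the axon terminal.

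Values are hybridisation signals that the authors scaled to the same trimmed mean on every array, and the number of arrays limits the precision. Differences are of log2(signal + 16), and mean signals were averaged on that scale and converted back. A member was called where the limma p-value, adjusted over all 13351 genes, was under 0.05. The median signal of an array was 316 to 331 in young control and 284 to 313 in old control mice. The 3' to 5' signal ratio of beta-actin, a measure of RNA integrity and of labelling, was 1.42 to 1.74 in young control, 1.73 to 2.52 in old control, 1.43 to 2.36 in α-tocopherol and 1.22 to 1.60 in mixture mice. The 18S ribosomal RNA control signal was 237 to 443 in young control, 597 to 885 in old control, 391 to 1020 in α-tocopherol and 340 to 513 in mixture mice, so that old control mice overlapped neither young control nor mixture mice. Markers of neocortical excitatory neurons were measured for 9 of 10 genes. Their summed signal was 22512 to 26002 in young and 26394 to 33630 in old control mice, without overlap. It was 24710 to 30224 in α-tocopherol and 23404 to 28484 in mixture mice. With age 7 of these 9 markers were up and 2 down, the lowest at -0.35. Of the 9, 3 were called higher, against 12.4% of all genes. The summed signal of 10 pan-neuronal markers was 154416 to 162899 in young control, 164781 to 195136 in old control, 158092 to 195754 in α-tocopherol and 142385 to 158842 in mixture mice. These sums are of deposited signals. The median age difference of the pan-neuronal markers was 0.20 as deposited, and -0.03 after quantile normalization, with 4 up and 6 down. Of the excitatory markers 3 of 9 stayed called higher after quantile normalization, against 12% of all genes, with 8 up and 1 down. The sum of 10 astrocyte markers was 83970 to 88980 in young and 114462 to 134334 in old control mice, with no overlap. The sum of 10 microglial markers was 17515 to 18908 and 28026 to 31300 in the same groups, also without overlap. The sum of 8 choroid plexus markers ran from 10839 to 52590 within the old control group. The part of these measures in the results for single members was not tested, apart from the beta-actin ratio as a covariate. That ratio did not overlap between old control and mixture mice. In tissue measured as a whole, fewer cells of a type and less RNA per cell cannot be told apart.

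Between young and old control neocortex, single genes of the glutamate synapse differed in both directions and the set as a whole had no common shift. The largest rises were in Kalrn, a spine regulator 1.53-fold higher in old mice, and in Grm3, a metabotropic receptor 1.39-fold higher. The Kalrn rise was that of its brightest probe set, and the mean of all its probe sets differed by 0.07 (limma adjusted p = 0.644). Grm8, Lrrtm3, Grin2d and Cnih2 fell. In all, 8 of 34 members (23.5%) were called, 4 higher (Kalrn, Grm3, Nrgn, Grm4) and 4 lower, while 22.8% of all genes tested were called, 12.4% higher and 10.4% lower. The members' share was therefore close to that of all genes. The median difference of the members was 0.02 on the log2 scale and that of all genes -0.02. After quantile normalization, which gives every array the same distribution, 3 members were higher and 5 lower, against 21.1% of all genes called, 12% higher and 9.06% lower. With the arrays' medians set equal instead, the median of all genes moved up by 0.13 and 9 members were called higher and 1 lower, against 3075 genes higher and 449 lower, where the deposited scale gave 1656 and 1383. The 95% interval was contained within 1.5-fold in either direction for 28 of 34 members (82.4%), against 72.7% of all genes. It was within 2-fold for all 34 members and for 12608 of 13351 genes. With the beta-actin ratio as a covariate 3 members were called (Grm3, Nrgn and Kalrn), and without old control mouse 3 there were 5.

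**Figure D1:**
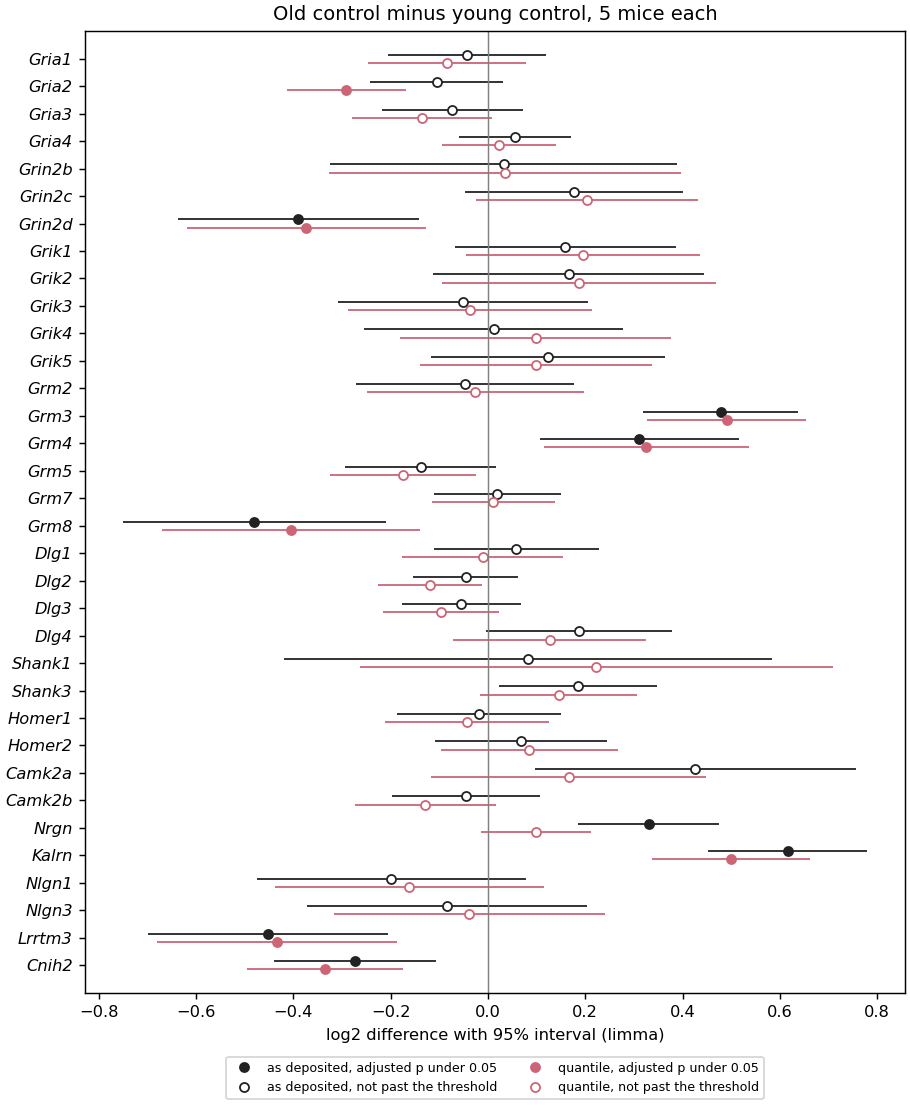
Log2 difference between old and young control mice (5 each) for the 34 measured members on the horizontal axis, with 95% limma intervals, in black as deposited and in red after quantile normalization. Filled points passed an adjusted p of 0.05: Kalrn, Grm3 and Grm4 lie to the right and Grin2d, Grm8, Lrrtm3 and Cnih2 to the left under both scalings, Nrgn is filled only as deposited and Gria2 only after quantile normalization.

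None of the 4 AMPA receptor subunits, which form the fast excitatory channels, was called with age on the deposited scale. Gria1 had group mean signals from 5668 in old control to 6441 in mixture mice. Gria3 ranged from 6991 to 7758 and Gria4 from 4506 to 4933. Their age differences were -0.04, -0.07 and 0.06 on the log2 scale, each smaller than 0.10. Gria2 encodes the subunit that makes the channel nearly impermeable to calcium. Its signal was 17054, 17846, 17704, 18285 and 20048 in young control mice and 15155, 16271, 17980, 16787 and 18420 in old control mice. The groups overlapped, and the difference of -0.11 was not called (limma adjusted p = 0.257). After quantile normalization Gria2 differed with age by -0.29, with no overlap between the groups (limma adjusted p = 0.00163).

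Of the NMDA receptor subunits, Grin2d was the 1 called among 3 measured. Grin2d, a subunit with slow kinetics that is known from interneurons and from early development, had signals of 1545, 1688, 1850, 1784 and 1472 in young control mice. In old control mice they were 1570, 1492, 1155, 1225 and 976. Of the old mice 3 lay below every young mouse and the other 2 lay within the young range. The difference was -0.39 ± 0.12 (SE of the contrast, 5 mice a group; limma adjusted p = 0.0223), and -0.37 after quantile normalization (adjusted p = 0.0286). Leaving out young control mouse 3 or 4 or old control mouse 3 or 5 ended the call, with limma adjusted p-values from 0.0502 to 0.0744, and with array medians set equal the difference was -0.26 (adjusted p = 0.102). With the mean of both Grin2d probe sets it was -0.18 (adjusted p = 0.507). Signals were 1162, 1230, 1463, 1191 and 996 in α-tocopherol mice and 1011, 1355, 1147, 1227 and 1346 in mixture mice, all below the young mean of 1662. Grin2b, the subunit that anchors the kinase CaMKII, had mean signals of 3155 in young and 3227 in old control mice. Grin2c, found mainly in cerebellum and in astrocytes, had 1205 and 1365. Neither was called. Grin2a, the other major cortical subunit, was represented by a dim probe set with signals of 17.3 to 262 over the 20 mice; in the fit with no filter its age difference was -0.15 ± 0.43 (SE).

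The 5 kainate receptor subunits had no call with age. Grik1 group means lay between 750 and 874, Grik3 between 1829 and 2051, Grik4 between 416 and 487 and Grik5 between 4231 and 4734. The age differences of these 4 and of Grik2 ran from -0.05 to 0.17 on the log2 scale. Grik2, which forms the channel core of many kainate receptors, had signals of 1289, 1594, 1302, 1659 and 1917 in young and 1670, 1779, 1910, 1801 and 1491 in old control mice. The groups overlapped and the difference was 0.17 (limma adjusted p = 0.391).

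Among the 6 metabotropic receptors, 3 were called with age. Grm3, a receptor that lowers cyclic AMP and is found on astrocytes as well as neurons, rose. Its signal was 1508, 1417, 1413, 1450 and 1620 in young control mice and 2244, 1812, 2082, 2083 and 2140 in old control mice. Every old mouse was above every young mouse. The difference was 0.48 ± 0.08 (SE; limma adjusted p = 0.000271), with 0.49 after quantile normalization (adjusted p = 0.000276), and it stayed called under all 12 other settings and in each of the 20 fits that left out 1 mouse. The α-tocopherol mice had 2217, 1712, 2100, 2101 and 1942 and the mixture mice 2034, 1876, 1970, 1862 and 1718, again above every young mouse. Astrocyte markers were higher in the same old mice. As deposited 9 of 10 were called higher with a median difference of 0.44, against 12.4% of all genes. After quantile normalization 6 of 10 were called higher with a median of 0.38, against 12% of all genes. The part of these markers in the Grm3 result was not tested.

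The 250 bases before the Grm3 start site are shown because its rise was called in every setting run. They lie on the minus strand at chr5:9725353-9725602 of GRCm38.p6, from RefSeq, written 5′ to 3′ along the gene, with capitals marking the GC box GGGCGG, the core of a binding sequence for Sp-type factors.
Grm3: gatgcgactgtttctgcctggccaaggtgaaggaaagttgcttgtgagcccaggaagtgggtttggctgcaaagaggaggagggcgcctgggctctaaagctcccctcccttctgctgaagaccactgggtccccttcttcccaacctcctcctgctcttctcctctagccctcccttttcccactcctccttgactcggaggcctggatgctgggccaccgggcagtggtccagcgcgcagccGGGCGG
The single match lies at the end of the window, next to the start site. The search, on both strands, covered GGGCGG, the cyclic AMP response element TGACGTCA and the TATA sequence TATAAA, and 26 of 37 members had 40 such windows. A GC box was present in 18 of 40 (45%), against 32.7% of 32851 windows of all genes. TATAAA was in 3 of 40 (7.5%, against 12.4%) and TGACGTCA in 0 of 40 (against 1.55%). A match describes letters in the window and does not show that a factor binds there.

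Grm4, a presynaptic receptor that restrains release, was also higher in old mice. Its signal was 1411, 1257, 1501, 1623 and 1337 in young and 1918, 1601, 1904, 1913 and 1535 in old control mice. Of the old mice 3 lay above every young mouse and all 5 above the young mean. The difference was 0.31 ± 0.10 (SE; limma adjusted p = 0.0262), with 0.33 after quantile normalization (adjusted p = 0.0264). The call ended without young control mouse 2 or 5 or old control mouse 1, 3 or 4 (adjusted p up to 0.075). Signals in α-tocopherol mice were 1711, 1696, 2192, 1536 and 1553, and in mixture mice 1891, 2040, 1962, 1900 and 1625.

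Grm8, another presynaptic receptor of the same class, fell. The young control mice had signals of 572, 428, 604, 699 and 517 and the old control mice 314, 431, 410, 387 and 444. Young mouse 2, at 428, lay inside the old range and the other 4 above it. The difference was -0.48 ± 0.13 (SE; limma adjusted p = 0.0112), with -0.40 after quantile normalization (adjusted p = 0.0279). Signals were 427, 494, 461, 435 and 413 in α-tocopherol mice and 412, 365, 346, 427 and 477 in mixture mice. Of the other metabotropic receptors, Grm2 had means of 1317 and 1274 in young and old control mice, Grm7 3413 and 3458, and Grm5, the receptor tethered by Homer proteins, 5132 and 4661. None of these 3 was called, and the Grm5 difference was -0.14 (limma adjusted p = 0.187).

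**Figure D2:**
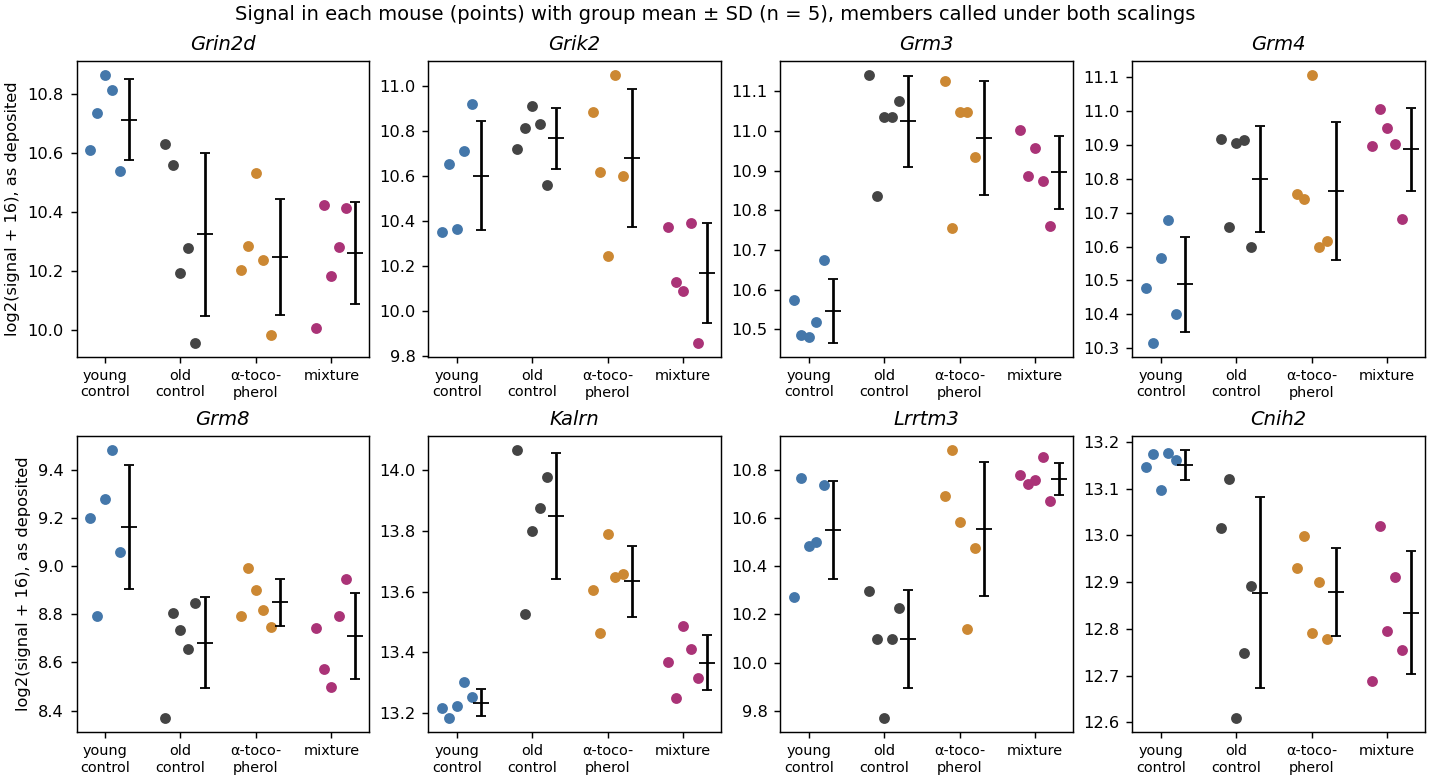
Log2(signal + 16) in each of the 20 mice for the 8 members called under both scalings, by group, with the group mean and SD (n = 5) at the right of each column. Grm3 and Kalrn in old control mice lie above all young mice, Kalrn and Grik2 in mixture mice lie below all old control mice and Lrrtm3 above them; each panel has its own vertical scale, which does not start at 0.

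None of the 8 measured scaffold proteins was called with age. Dlg1, Dlg2 and Dlg3, relatives of PSD-95 that bind receptor tails, had age differences of 0.06, -0.05 and -0.05. Dlg4, which encodes PSD-95 itself, had mean signals of 6482 in young and 7383 in old control mice, a difference of 0.19 (limma adjusted p = 0.145). Shank3, a master scaffold below PSD-95, had 5289 and 6015 (0.19, adjusted p = 0.0878). Shank1 was dim, with group means of 238 to 298 and an SE of 0.24. Homer1 and Homer2, which link group I metabotropic receptors to Shank, had differences of -0.02 and 0.07. Dlg2 had the smallest within-group SD of all members, 0.06 on the log2 scale, and a 95% interval of -0.15 to 0.06.

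Of the 4 calcium signalling and spine genes, Kalrn and Nrgn were higher in old control mice. Kalrn encodes kalirin, a protein that shapes dendritic spines. Its signal was 9490, 9278, 9539, 10071 and 9731 in young control and 17169, 11771, 14249, 15017 and 16132 in old control mice. The young mice lay close together and every old mouse lay above them. The difference was 0.62 ± 0.08 (SE; limma adjusted p = 3.67e-05), the largest of any member, and 0.50 after quantile normalization (adjusted p = 0.000232). This holds for the brightest of 8 Kalrn probe sets. With the mean of all probe sets the difference was 0.07 (adjusted p = 0.644).

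The Kalrn promoter window is shown because the gene differed in both the age and the mixture comparison. It lies at chr16:34514028-34514277 (GRCm38.p6, minus strand, RefSeq), 250 bases 5′ to 3′ up to a start site, 60.8% G and C against a median of 52.4% for all windows, with none of the 3 motifs. The gene has several known starts and this table holds 1.
Kalrn: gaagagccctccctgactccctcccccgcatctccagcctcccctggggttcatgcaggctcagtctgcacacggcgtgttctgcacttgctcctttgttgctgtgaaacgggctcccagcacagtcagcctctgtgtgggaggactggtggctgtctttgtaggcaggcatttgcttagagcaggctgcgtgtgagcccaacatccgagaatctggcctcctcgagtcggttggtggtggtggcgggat

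Nrgn encodes neurogranin, a protein of the spine that holds calmodulin. Its signal was 17777, 18158, 18051, 17347 and 19325 in young control and 22981, 20084, 23726, 21351 and 26283 in old control mice, with no overlap. The difference was 0.33 (limma adjusted p = 0.0021) as deposited and 0.10 (adjusted p = 0.205) after quantile normalization, the 1 of 12 other settings that ended the call, and 0.17 after cyclic loess normalization (adjusted p = 0.0442). Camk2a, the α subunit of CaMKII, had signals of 16583, 19045, 22072, 16147 and 18517 in young and 20823, 19940, 33341, 19199 and 34435 in old control mice. Old mice 3 and 5 stood above the others, and the difference of 0.43 was not called (adjusted p = 0.0554). Camk2b, the β subunit, had means of 10278 and 9958 and was not called.

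Lrrtm3 and Cnih2 fell among the 4 adhesion and partner genes. Lrrtm3 encodes a leucine-rich adhesion protein that binds presynaptic neurexins. Its signal was 1220, 1722, 1415, 1431 and 1690 in young control and 1242, 1081, 857, 1079 and 1182 in old control mice. Of the old mice 4 lay below every young mouse. The difference was -0.45 ± 0.12 (SE; limma adjusted p = 0.0091), -0.43 after quantile normalization (adjusted p = 0.0132) and -0.32 with array medians set equal (adjusted p = 0.0683). Cnih2 encodes cornichon 2, which escorts AMPA receptors to the surface and slows their closing. The young control mice had 9047, 9232, 8742, 9238 and 9147 and the old control mice 8271, 8895, 6230, 6867 and 7588. Of the old mice 4 lay below every young mouse and mouse 2 within their range. The difference was -0.27 ± 0.08 (SE; limma adjusted p = 0.0179). It was -0.33 after quantile normalization, where the groups did not overlap (adjusted p = 0.00444), and -0.14 with array medians set equal (adjusted p = 0.302). Leaving out old control mouse 3 or 4 ended the call (adjusted p = 0.0566 and 0.0526). Signals in α-tocopherol mice were 7792, 8173, 7068, 7628 and 7015 and in mixture mice 6590, 8298, 7096, 7689 and 6900, every one below the young mice. The neuroligins Nlgn1 and Nlgn3, postsynaptic partners of neurexins, had age differences of -0.20 and -0.08 and were not called.

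The promoter windows of these genes contrast in composition and are shown for that reason. Lrrtm3 lies at chr10:64090256-64090505 and Cnih2 at chr19:5098522-5098771, both on the minus strand of GRCm38.p6 in RefSeq, each 250 bases 5′ to 3′. The Lrrtm3 window is 46% G and C with none of the 3 motifs. The Cnih2 window is 65.6% G and C, and its 3 GC boxes, read on the opposite strand as CCGCCC, are in capitals.
Lrrtm3: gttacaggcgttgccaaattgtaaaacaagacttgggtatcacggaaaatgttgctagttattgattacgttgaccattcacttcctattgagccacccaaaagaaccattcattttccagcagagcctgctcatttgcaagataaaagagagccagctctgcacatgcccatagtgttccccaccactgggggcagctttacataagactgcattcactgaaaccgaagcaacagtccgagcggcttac
Cnih2: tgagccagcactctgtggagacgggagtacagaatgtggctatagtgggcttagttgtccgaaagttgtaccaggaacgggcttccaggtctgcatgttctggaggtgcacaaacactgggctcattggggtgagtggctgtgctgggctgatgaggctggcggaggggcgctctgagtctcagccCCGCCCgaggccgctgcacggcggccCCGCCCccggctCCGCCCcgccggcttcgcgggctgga

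Genes of the same pathway outside the set were read from lists drawn up by function, with earlier results of these data known. Of 40 other scaffold and signalling proteins of the postsynaptic density, 34 were measured. With age 12 of these 34 were called higher and 0 lower, with a median difference of 0.15. Of all genes 12.4% were called higher and 10.4% lower. After quantile normalization 8 were higher and 1 lower, with a median of 0.07, against 12% and 9.06% of all genes. Dlgap2, a bridge between PSD-95 and Shank, rose by 0.78 (limma adjusted p = 0.000323). Ppp3cb, a catalytic subunit of the phosphatase calcineurin, rose by 0.32 (adjusted p = 0.000468), Sipa1l1 by 0.34 (adjusted p = 0.00335) and Iqsec1 by 0.37 (adjusted p = 0.00489). These 4 were also called after quantile normalization.

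Of 26 other receptor subunits and AMPA receptor auxiliary proteins, 21 were measured. With age 2 of these 21 were higher and 2 lower, against 12.4% and 10.4% of all genes. The auxiliary subunit Shisa7 rose by 0.72 (limma adjusted p = 0.000333) while Shisa6 fell by 0.56 (adjusted p = 0.00582). Cacng7, an auxiliary subunit of the stargazin family, fell by 0.40 (adjusted p = 0.0204). Nptx1, a secreted pentraxin that gathers AMPA receptors, rose by 0.21 (adjusted p = 0.0211) and was not called after quantile normalization (0.13). Of 25 other synaptic adhesion proteins, 22 were measured, with 4 higher and 2 lower, against the same shares of all genes. Lgi1 rose by 0.58, the latrophilin Adgrl3 by 0.50, the neurexin Nrxn2 by 0.44 and Flrt3, a ligand of latrophilins, by 0.43 (limma adjusted p from 0.000777 to 0.0175). The 2 that fell, named after their values were seen, were the Lrrtm3 relatives Lrrtm2 (-0.47, adjusted p = 0.0285) and Lrrtm4 (-0.33, adjusted p = 0.0319), the latter not called after quantile normalization.

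The array carried 82 probe sets for the 35 genes, of which 72 were bright enough to test, and 18 genes had several. When every probe set was tested on its own, 17 of the 72 were called with age, 9 higher and 8 lower, in 14 genes, against 18.9% of all probe sets. All probe sets of a gene had the same sign in 6 of the 18 genes. Camk2a showed the widest range. Its second probe set read 7591, 9002, 11098, 11332 and 8384 in young and 17412, 17070, 18916, 17547 and 17855 in old control mice. These groups did not overlap, a difference of 0.92 (limma adjusted p = 2.39e-05). Its dimmest probe set past the filter read 364, 251, 381, 395 and 529 in young and 124, 75.8, 199, 67.0 and 215 in old control mice, a difference of -1.48 (adjusted p = 0.00274). The same gene thus had called differences in opposite directions. The fall rests on a probe set with a mean signal of 195, just above the filter at 184, and with old control signals of 67.0 to 215.

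Dlg4 was likewise uneven. Its second probe set read 1542, 2177, 3317, 2076 and 1783 in young and 3774, 4516, 3683, 3736 and 4517 in old control mice. Every old mouse lay above every young one, a difference of 0.93 (limma adjusted p = 0.00344) where the brightest gave 0.19. The second probe sets of Grm5 (0.35) and Gria2 (-0.34), the second of Gria4 (-0.53) and the third of Nlgn3 (0.56) were called where the brightest was not. For Kalrn the 6 other probe sets past the filter gave 0.07, 0.00, -0.02, 0.00, -0.73 and 0.02, none of them called. For Lrrtm3 the second probe set gave -0.49 and was called (adjusted p = 0.0256), the fourth gave -0.49 and the third 0.04. For Grin2d the other probe set gave 0.03. Which transcript ends these probe sets measure was not analysed here.

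**Figure D3:**
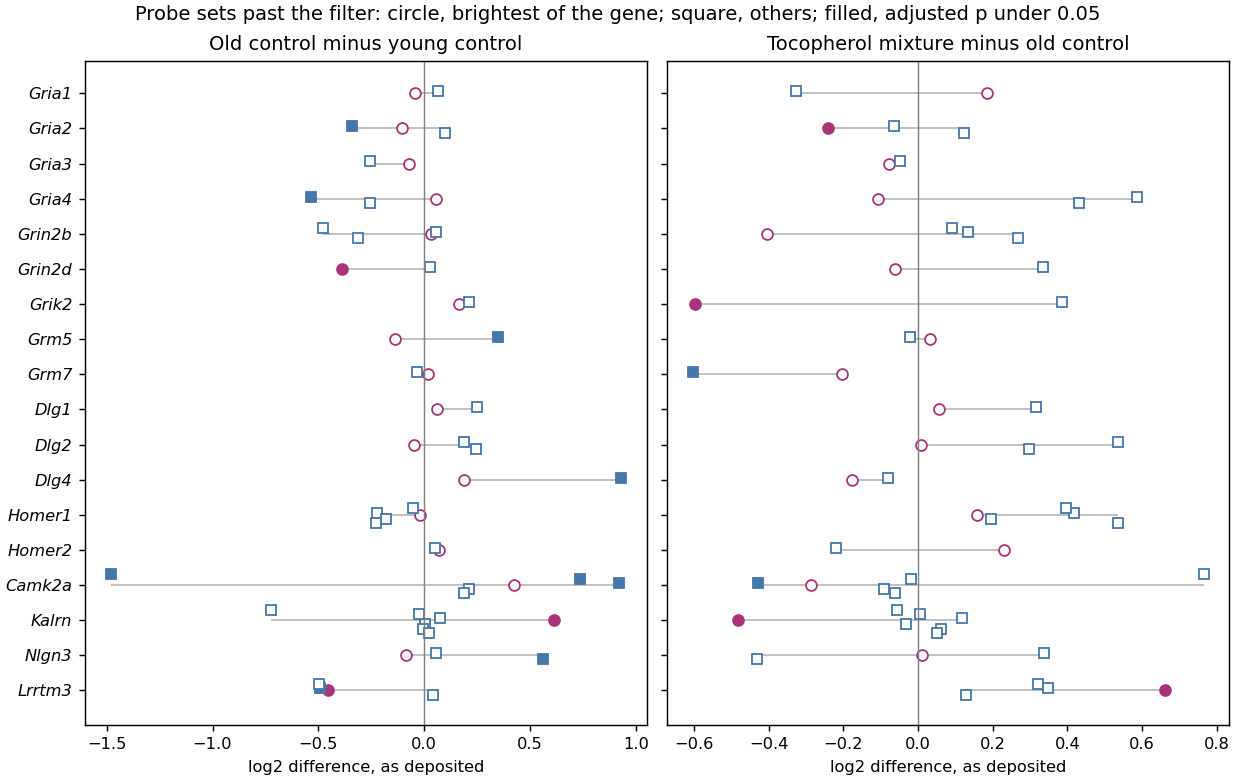
Log2 differences as deposited of every probe set past the filter for the 18 genes with more than 1, for old against young control mice (left) and mixture against old control mice (right); circles are the brightest probe set of a gene, squares the others, filled where the limma adjusted p over all probe sets was under 0.05. Camk2a spans -1.48 to 0.92 with age, and the Kalrn circle stands apart from most of its squares on both sides.

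The size of the deposited differences moved with brightness over all genes. In the brightest 3% of genes (401 genes) the median age difference was 0.20, and Gria2, Nrgn and Camk2a are among them. With the genes cut into 5 equal bins by signal, it was 0.07 in the brightest bin, which held 17 of 34 members, and -0.15 in the dimmest. After quantile normalization the brightest 3% had a median of -0.00. The part of this in the results for Nrgn and Camk2a was not tested beyond the quantile values given beside them.

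**Figure D4:**
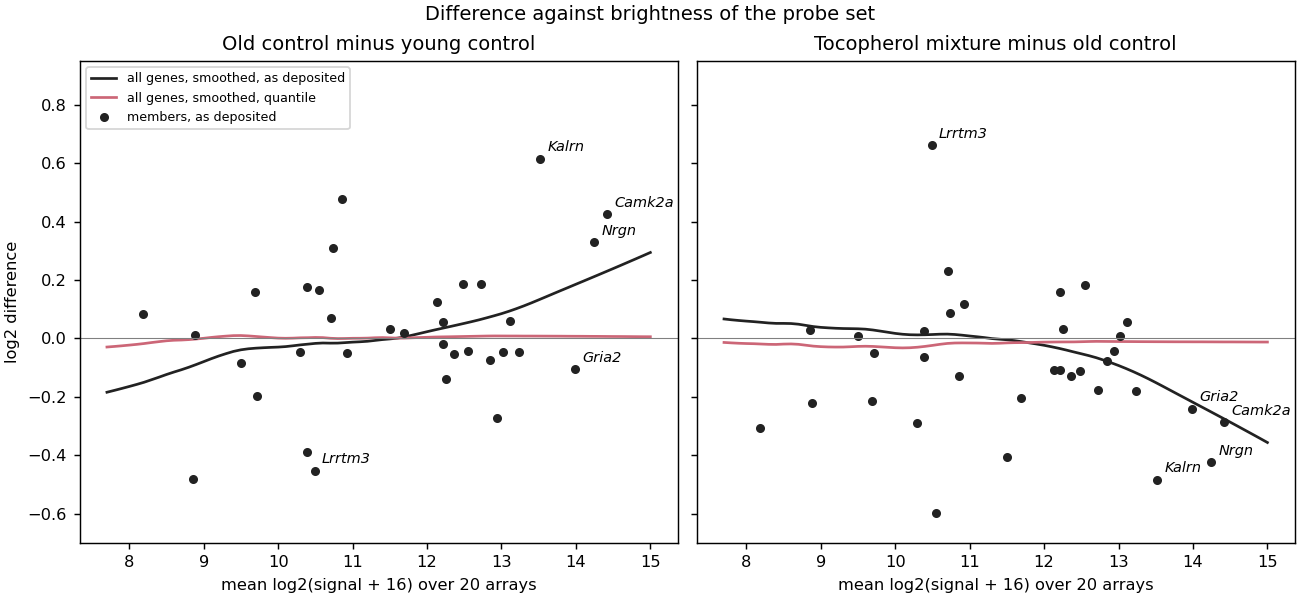
Log2 difference (vertical axis) against mean log2(signal + 16) over 20 arrays (horizontal axis) for the 34 members as deposited (points), with the running level of all genes tested as deposited (black line) and after quantile normalization (red line). The black line climbs toward bright genes with age (left) and descends in mixture against old control mice (right), while the red line stays near 0; Nrgn, Camk2a and Kalrn lie at the bright end.

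With α-tocopherol no member was called against old control mice, as deposited or after quantile normalization, and 0% of all genes were called under either scaling. The smallest limma adjusted p of a member was 0.829. An unadjusted p under 0.05 was found in 4 of 34 members, against 753 of 13351 genes. These 4 were Lrrtm3 with a difference of 0.46, Homer2 with 0.20, Kalrn with -0.22 and Nrgn with -0.17. The median difference of members was -0.04. For 33 of 34 members the 95% interval lay within 1.5-fold either way, as it did for 88% of all genes, the exception being Lrrtm3 with 0.21 to 0.70. The Lrrtm3 signals were 1638, 1872, 1518, 1112 and 1408 in α-tocopherol mice, where mouse 4 lay inside the old control range and the other 4 above it. The Kalrn signals were 12461, 11286, 14152, 12839 and 12907, which overlapped the old control mice and lay above all young mice.

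With the mixture, by the brightest probe set of each gene, Kalrn, Grik2, Nrgn and Gria2 were lower and Lrrtm3 was higher than in old control mice. These 5 of 34 members (14.7%) compare with 4.52% of all genes, and by direction 1.36% of all genes were higher and 3.16% lower. The members' share lay above that of all genes, which is a description and was not tested. After quantile normalization 3 members (8.82%) were called, Lrrtm3 higher and Grik2 and Kalrn lower, against 0.622% of all genes, 0.232% higher and 0.389% lower. The members' median was -0.11 as deposited and -0.08 after quantile normalization, with medians of 0.00 and -0.02 for all genes. These medians are not matched for brightness. In the brightest of the 5 bins by signal, which held 17 of 34 members, the deposited median was -0.08 for all genes and -0.11 for members. After quantile normalization the medians in that bin were -0.01 and -0.05. The part of brightness in the members' median was not tested. The old control mice serve here as well as in the age comparison, so the directions of both for a gene are not independent. No member was called with the beta-actin ratio as a covariate, nor with old control mice 3 and 5 both left out, a choice made after seeing the data. The beta-actin ratio was 1.73 to 2.52 in old control and 1.22 to 1.60 in mixture mice, without overlap. The fit with this covariate therefore cannot separate the ratio from the group. Without mixture mouse 5 there were 3 calls.

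**Figure D5:**
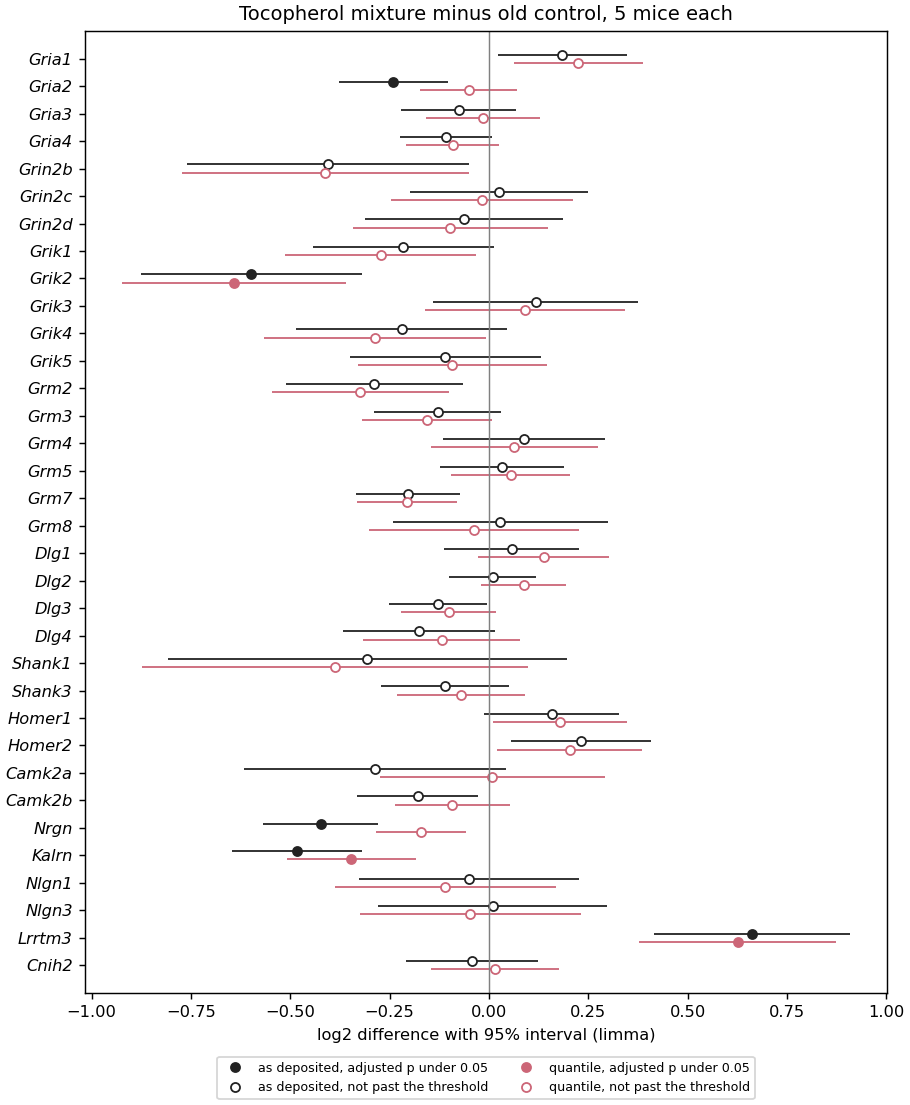
Log2 difference between mixture and old control mice (5 each) for the 34 measured members on the horizontal axis, with 95% limma intervals, in black as deposited and in red after quantile normalization. Filled points passed an adjusted p of 0.05: Lrrtm3 lies at 0.66 to the right and Grik2 and Kalrn to the left under both scalings, while Gria2 and Nrgn are filled only as deposited.

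Among the receptors, Grik2 had the largest mixture difference. Its signals in mixture mice were 1308, 1104, 1073, 1325 and 911, all below the lowest old control mouse at 1491. The difference was -0.60 ± 0.13 (SE; limma adjusted p = 0.0163), and -0.64 after quantile normalization (adjusted p = 0.0348). Without mixture mouse 5 the adjusted p was 0.0539, and the other Grik2 probe set past the filter gave 0.38. The mean of both gave -0.11 (adjusted p = 0.817). In α-tocopherol mice Grik2 signals were 1869, 1555, 1196, 2102 and 1534, spread on both sides of the old control mice. Gria2 read 14914, 14627, 13006, 13579 and 15434 in mixture mice, of which 4 lay below every old control mouse. Its difference was -0.24 (limma adjusted p = 0.0398) as deposited and -0.05 (adjusted p = 0.709) after quantile normalization. The Gria2 call was lost in 7 of 12 other settings and in 7 of 20 fits that left out 1 mouse, namely old control mouse 3, 4 or 5 or mixture mouse 2, 3, 4 or 5 (limma adjusted p up to 0.0938).

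Of the other receptors, Grin2b had a mixture difference of -0.41 with an interval of -0.76 to -0.05 (limma adjusted p = 0.189). Grm7, a presynaptic receptor of low affinity for glutamate, had -0.20 (adjusted p = 0.0638). Its second probe set read 667, 588, 972, 826 and 720 in old control and 444, 435, 512, 456 and 588 in mixture mice, a difference of -0.60 called among all probe sets (adjusted p = 0.0304). One mixture mouse overlapped the old control range there. Gria1 had a difference of 0.18 (adjusted p = 0.192). Grm3, Grm4, Grm8, Grin2d and Cnih2, which differed with age, had mixture differences of -0.13, 0.09, 0.03, -0.06 and -0.04, none called.

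In the spine group, Kalrn read 10564, 9714, 11475, 10864 and 10178 in mixture mice, all below the lowest old control mouse at 11771. The difference was -0.48 ± 0.08 (SE; limma adjusted p = 0.00619), and -0.35 after quantile normalization, where the groups overlapped (adjusted p = 0.0411). With the mean of all Kalrn probe sets it was 0.02 (adjusted p = 0.947), so the call belongs to the brightest probe set alone. Nrgn read 17335, 18037, 17107, 15969 and 16550 in mixture mice, below every old control mouse. Its difference was -0.42 (limma adjusted p = 0.00619) as deposited and -0.17 (adjusted p = 0.111) after quantile normalization. Pan-neuronal markers moved the same way, 5 of 10 called lower as deposited and 0 after quantile normalization, and the brightest 3% of genes had a median of -0.26. Their part in the Nrgn result was not tested.

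Lrrtm3 read 1739, 1696, 1714, 1835 and 1614 in mixture mice, above every old control mouse and close together. The difference was 0.66 ± 0.12 (SE; limma adjusted p = 0.00768), 1.58-fold, and 0.63 after quantile normalization (adjusted p = 0.0218). It was called in each of the 20 fits that left out 1 mouse. Its other 3 probe sets gave 0.35, 0.13 and 0.32, none called, and the mean of all 4 gave 0.36 (adjusted p = 0.0701). The scaffold genes had no call with the mixture. Homer2 had a difference of 0.23 (adjusted p = 0.124) and Homer1 0.16 (adjusted p = 0.303), and the 5 Homer1 probe sets past the filter gave 0.16 to 0.54 with none called. Over all probe sets, 7 member probe sets in 7 genes were called with the mixture, 1 higher and 6 lower, against 3.59% of all probe sets. Among the lower was the second Camk2a probe set, with -0.43 (limma adjusted p = 0.0344) as deposited and -0.24 after quantile normalization.

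The wider lists were also read for the mixture comparison, in which 1.36% of all genes were called higher and 3.16% lower as deposited. Of the 34 other scaffold and signalling proteins 4 were lower and 0 higher, namely Ppp3r1 (-0.35), Camk2n1 (-0.49), Ppp3ca (-0.26) and Cttn (-0.54), named after their values were seen. None of them was called after quantile normalization. Of the 22 adhesion proteins Adgrl3 fell by 0.49 (limma adjusted p = 0.00933), with -0.52 after quantile normalization (adjusted p = 0.0218). None of the 21 receptor and auxiliary genes was called.

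The supplements were compared directly at the same age, at doses that, by the sample labels, gave the same total of tocopherol and different amounts of α-tocopherol. The design text does not state the 1000 mg/kg dose, so the equal total rests on the labels. No member was called, as deposited or after quantile normalization, and 0% of all genes were called under either scaling. As deposited, 6 of 34 members had an unadjusted p under 0.05, against 1163 of 13351 genes. The mixture differed from α-tocopherol by -0.51 in Grik2 (interval -0.79 to -0.23, limma adjusted p = 0.155), by -0.38 in Grm2 (-0.60 to -0.15), by -0.27 in Kalrn (-0.43 to -0.10) and by -0.26 in Nrgn (-0.40 to -0.11). Gria2 differed by -0.17 and Gria4 by -0.13. After quantile normalization the differences were -0.54 in Grik2, -0.40 in Grm2, -0.17 in Kalrn, -0.06 in Nrgn, -0.01 in Gria2 and -0.12 in Gria4. Lrrtm3 differed by 0.21 with an interval of -0.04 to 0.45. For 30 of 34 members (88.2%) the interval lay within 1.5-fold either way, as it did for 87.3% of all genes. It reached further in Grik2, Grm2, Shank1 and Camk2a. A p that misses the threshold does not show that both supplements act alike.

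Within groups the members varied somewhat less between mice than genes in general, in a comparison not matched for brightness. Of the 34 members 17 lay in the brightest of the 5 bins by signal and 1 in the dimmest. The median within-group SD was 0.15 on the log2 scale for the members and 0.18 for all genes tested. It ran from 0.06 in Dlg2 to 0.41 in Shank1, the dimmest member tested. The range between the highest and lowest of the 4 group means was widest in Lrrtm3 (0.66), Kalrn (0.62) and Grik2 (0.60) and narrowest in Dlg2 (0.05). In Shank1 the range of group means, 0.31, was smaller than its within-group SD.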

How the data were processed

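Messenger RNA of neocortex from 20 mice (4 groups of 5, by the labels) was hybridised to 1 Affymetrix array each. The deposited intensity values are linear signals per probe set. The submitters' processing notes name GCOS without a version, and each deposited array has a 2% trimmed mean of 1000; the background step and the probe set summary are not stated in those notes. Such scaling cannot show a change in total messenger RNA.

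Of 45037 probe sets that are not controls, 34945 had 1 gene symbol. The 60% with the highest average log2(signal + 16), above a signal of 184, were kept, and the brightest per gene gave 13351 genes. The pseudocount of 16 understates differences of dim genes. limma 3.58.1 in R 4.3.3 was fitted to all 20 arrays, with lmFit, 4 contrasts and eBayes with trend, two-sided, with Benjamini-Hochberg adjustment over all genes. The scripts were tested on simulated data.

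The members, the other lists and the tests were chosen with earlier results of these data known. Members called in any comparison both as deposited and after quantile normalization are given in every mouse; those called under 1 of both scalings are given with their differences, and from other lists at most 4 genes by smallest p. Alternatives were quantile and cyclic loess normalization, equal array medians, pseudocounts of 1 and 64, no filter, the top 40%, the mean of all probe sets, the replicate number as a block, only the groups compared, the beta-actin ratio as a covariate and each mouse left out. Each probe set on its own, and old control mice 3 and 5 left out together, were added after seeing the data. Promoters are from RefSeq (GRCm38.p6).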

Additional observations from a re-analysis of the deposited data

Results flagged for a closer look

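In 6 of 140 groups of 5 mice, over 35 members in 4 groups, 1 mouse stood far from the other 4 by Dixon's criterion, which chance alone meets in about 1 of 20 groups. Gria4 in mixture mouse 3 read 4151, below 4552 to 4641 in the others. Grik3 in mixture mouse 5 read 1517, below 2039 to 2296. Grm5 in α-tocopherol mouse 3 read 4414, below 4959 to 5054, and Shank3 in the same mouse read 7616, above 5308 to 5850. Grm7 in young control mouse 5 read 3768, above 3272 to 3390, and Shank1 in the same mouse read 208, below 294 to 315.

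Grm2, an inhibitory presynaptic receptor, differed by -0.38 on the log2 scale between mixture and α-tocopherol mice. Every α-tocopherol mouse (1361, 1281, 1394, 1474 and 1279) lay above the old control mean of 1274 and every mixture mouse (994, 989, 824, 1219 and 1234) below it. The old control mice themselves read 1451, 1007, 1233, 1305 and 1429 and overlapped both groups. The direct comparison of the supplements did not pass the threshold (limma adjusted p = 0.197), nor did the mixture against old control mice (-0.29, adjusted p = 0.131).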

How the results depend on the processing

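With age, 8 members were called as reported, 3 with the beta-actin ratio as a covariate and 14 with a called probe set when each was tested on its own; leaving out 1 mouse gave 5 to 10. The 5 calls for the mixture against old control became 3 after quantile normalization, 3 after cyclic loess, 1 with the mean of all probe sets (Nrgn), 0 with the beta-actin covariate and 0 without old control mice 3 and 5; leaving out 1 mouse gave 3 to 6. For α-tocopherol the count was 0 in every setting, and for the mixture against α-tocopherol 0 to 1, the 1 being Nrgn without α-tocopherol mouse 5. One called difference reversed: Kalrn in mixture against old control mice was 0.0192 (limma adjusted p = 0.947) with the mean of all probe sets. Of 155 recalculations of the 13 called member differences, 122 kept direction and call, and of 260 that left out a mouse 241 did. Over all genes, the 603 called for the mixture became 83 after quantile normalization, 91 after cyclic loess, 179 with the mean of all probe sets, 319 with only the groups compared and 0 with the beta-actin covariate or without old control mice 3 and 5. That count was 239, 294 and 359 without old control mouse 3, 4 or 5, and 375 and 186 without mixture mouse 4 or 5. For age, 3039 became 1158 with the beta-actin covariate. The ratio itself was higher in old than in young control mice, with ranges that barely overlapped, and old control and mixture mice did not overlap. The fits with this covariate can therefore hardly separate the ratio from the group, and the cause of these changes was not tested. Signal over background was not available, so dim members such as Shank1 and Grin2a are the least precise.

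The replicate numbers do not pair the mice: deviations of same-numbered mice correlated between -0.12 and 0.20 over genes. With the replicate block 9 members were called for age, 5 for the mixture and 0 for both other comparisons; over all genes the counts were 3269 and 695 for age and mixture, and 1 for the mixture against α-tocopherol.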

Other observations

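Grin2a, the NMDA receptor subunit too dim for the tests, was read in the fit with no filter, which covered 18193 genes. Its signals in the single mice ran from 17.3 to 181 in young control, 22.5 to 155 in old control, 85.4 to 262 in α-tocopherol and 106 to 224 in mixture mice, and all groups overlapped. The difference from old control was 0.69 with α-tocopherol and 0.89 with the mixture, each with an SE of 0.43, and neither passed the threshold (limma adjusted p = 0.899 and 0.311).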
